A study of Mus musculus with 12 samples.

Results

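The genes described here are 10 components of the machinery that carries T cells from G1 into S phase: the D-type cyclins Ccnd1, Ccnd2 and Ccnd3, the cyclin-dependent kinases Cdk2, Cdk4 and Cdk6, and the kinase inhibitors Cdkn1b, Cdkn2a, Cdkn2c and Cdkn2d. They were taken by symbol, with each symbol matching 1 of the 38924 gene IDs counted. The rule uses no measured value, but the members were chosen with earlier results of these data known. RNA was sequenced from CD4+ T cells of the spleen of C57BL/6 mice, either wild type (WT) or STINGgt/gt, with 3 libraries for each of 4 groups. The STINGgt/gt (Goldenticket) mouse, labelled as a STING knockout, carries a missense mutation of the gene for STING, the adaptor that relays cytosolic DNA sensing, so the level of that mRNA gives no check of the genotype. According to the methods, mice were 8 to 12 weeks old and of the same sex, naive T cells were sorted, expanded for 2 days with antibodies to CD3 and CD28 and rested for 1 day without them. All groups shared this priming. The cells then received the solvent DMSO or 10-carboxymethyl-9-acridanone (CMA), a cell-permeable compound that activates mouse STING, for 16 h. The study describes its sequenced samples as biological replicates. Neither it nor the labels state that the libraries of a group came from separate mice, and the p-values measure the spread between these libraries.

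In a resting lymphocyte the retinoblastoma protein (RB) holds E2F transcription factors inactive. Mitogens and antigen receptor signals raise D-type cyclins, which bind CDK4 or CDK6 and start to phosphorylate RB, and cyclin E with CDK2 continues the process until the cell commits to S phase. Inhibitors of the INK4 family (p16, p18, p19) bind CDK4 and CDK6 and oppose their activation by the cyclin. In contrast p27, of the CIP/KIP family, binds assembled complexes and blocks CDK2. Cyclins D2 and D3 are the D-type cyclins that T cells mainly use, and p27 and p18 restrain the division of T cells.

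Reads on genes numbered between 27414450 and 43784910 per library (median 36418677). Levels are given as CPM, the reads of a gene scaled to a common library size with the TMM method. Changes are log2 fold changes with their standard error from edgeR's quasi-likelihood test, fitted to 13811 genes and with p-values adjusted over all of these by the Benjamini-Hochberg method. A gene is said to have risen or fallen where the adjusted p was under 0.05. All 10 genes passed the filter on low counts, but Ccnd1 did so only through WT libraries with CMA and Cdkn2a only through WT libraries. A gene of that kind had to differ between groups to be tested, so counts are also given for the other 8 genes. The defining T-cell transcripts were present, with Cd3e at a mean of 160 to 279 CPM and Cd4 at 435 to 540 CPM over the 4 groups. They moved with CMA in WT cells too, where 5 of 7 T-cell markers fell (Cd3e by 0.66, Cd3g by 0.39) and Cd4 rose by 0.19. Transcripts that mark other spleen cells were also present and differed between the groups. The summed level of 6 B-cell markers ranged from 253 to 266 CPM in WT cells with DMSO, from 350 to 378 CPM with CMA, where 5 of the 6 rose, and from 114 to 122 CPM in the 6 STINGgt/gt libraries. The sum of 7 myeloid markers was 56.6 to 64.7, 72.0 to 77.4 and 39.1 to 44.8 CPM in the same order, but its members moved apart with CMA in WT cells. Cst3 rose by 0.53, from a mean of 38.6 to 55.7 CPM, Lyz2 fell by 1.5 and Itgam by 1.71, 3 did not pass and Adgre1 was too low to be tested. The sum of 6 CD8 and natural killer markers was 121 to 138 CPM in WT cells with DMSO, 62.1 to 65.8 CPM with CMA and 58.2 to 64.4 CPM in STINGgt/gt cells. Most of the decline was Nkg7, from 69.6 to 20.4 CPM, and 4 of the 6 fell while Cd8b1 and Klrk1 did not pass. Reads outside annotated genes made up 4.86% to 5.47% of entries in WT libraries with DMSO, 6.79% to 7.16% with CMA and 5.98% to 6.54% in STINGgt/gt libraries, and alignments that were not unique 29.6% to 30.3%, 27.8% to 27.9% and 28.1% to 29.0%. None of these markers was at 0 in all libraries of a group. The part of the markers and of these shares in the results for the cell-cycle genes was not tested. In RNA from whole cultures, fewer cells of a type cannot be told apart from less RNA per cell. According to the study, T cells of WT but not of STINGgt/gt mice underwent apoptosis when cultured overnight with CMA. Cell death was not measured in these libraries. Its part in the comparisons that use WT libraries with CMA was not tested.

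With CMA, WT cells had more Ccnd1, Ccnd2, Cdkn1b and Cdkn2d mRNA and less Cdk4 and Cdkn2c mRNA, while Ccnd3, Cdk2, Cdk6 and Cdkn2a did not pass the test. Thus 4 of the 10 genes rose (3 of the 8 without Ccnd1 and Cdkn2a) and 2 fell, against 33% and 37.4% of all genes tested, so the share that moved was no larger than in the transcriptome as a whole. The median log2 change of the 10 genes was 0.03, against -0.04 for all genes tested. In STINGgt/gt cells none of the 10 rose and only Cdkn2d fell, against 0.398% and 0.92% of all genes. At an unadjusted p under 0.05 edgeR gave 0 higher and 4 lower, against 5.94% and 7.02% of all genes. DESeq2 and limma-voom each called 0 higher and 1 lower, against 1.12% and 1.89% of the genes DESeq2 tested and 0.449% and 0.905% of those limma-voom tested. The difference between the effect in WT and the effect in STINGgt/gt cells passed the test for the 6 genes that moved in WT, in the direction of the WT change (4 higher and 2 lower, or 3 and 2 of the 8 without Ccnd1 and Cdkn2a, against 27.2% and 31.6% of all genes). This difference uses the same libraries as the separate effects. In STINGgt/gt cells the median change was -0.13 for the 10 genes and -0.09 for the 8, against 0.001 for all genes tested. For the difference of the effects the medians were 0.26 and 0.11, against -0.03 for all genes tested. Inhibitors were among the genes that rose and among those that fell.

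**Figure D1:**
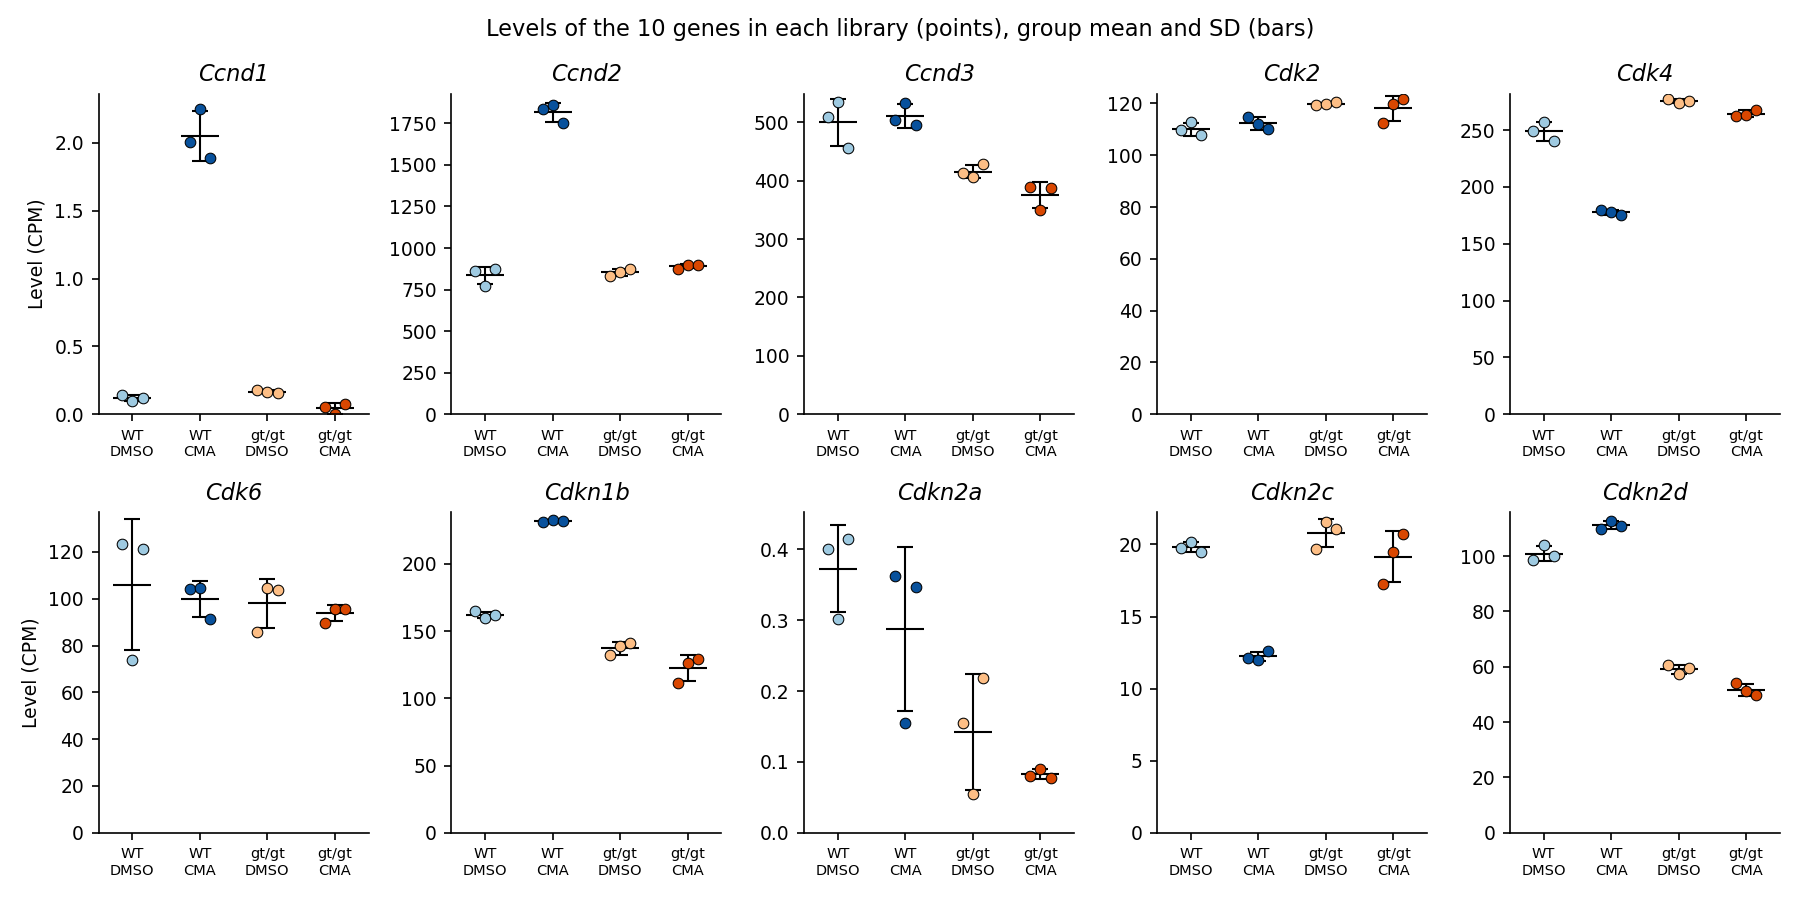
Level in CPM (y axis, from 0, its range set for each gene) of the 10 genes in the 12 libraries (points), by group on the x axis, with the group mean and SD as bars; gt/gt stands for STINGgt/gt. The WT libraries with CMA stand apart from the other 9 for Ccnd1, Ccnd2 and Cdkn1b on the high side and for Cdk4 and Cdkn2c on the low side. Every WT library lies above every STINGgt/gt library for Ccnd3, Cdkn1b and Cdkn2d, and below every one for Cdk4.

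For 8 of the genes the RefSeq table used here (GRCm38.p6) holds 1 or more promoter windows, 11 in all, and Ccnd1 and Ccnd2 are not among them. The 250 bases before the annotated start are shown for the kinase that fell and for the 3 inhibitors that moved with CMA in WT cells, since these inhibitors moved in different directions. They are the windows of Cdk4 (chr10:127063285-127063534, plus strand), Cdkn1b (chr6:134920151-134920400, plus strand), Cdkn2c (chr4:109666757-109667006, minus strand, the farther upstream of its 2 starts) and Cdkn2d (chr9:21291210-21291459, minus strand). Each is written 5′ to 3′ on the strand of the gene, with capitals for matches to any of 4 motifs searched on both strands.
Cdk4: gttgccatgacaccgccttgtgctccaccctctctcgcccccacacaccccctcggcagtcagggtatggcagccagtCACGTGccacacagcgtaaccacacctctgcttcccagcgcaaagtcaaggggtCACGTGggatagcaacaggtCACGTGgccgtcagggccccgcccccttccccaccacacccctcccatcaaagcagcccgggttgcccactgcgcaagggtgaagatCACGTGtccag
Cdkn1b: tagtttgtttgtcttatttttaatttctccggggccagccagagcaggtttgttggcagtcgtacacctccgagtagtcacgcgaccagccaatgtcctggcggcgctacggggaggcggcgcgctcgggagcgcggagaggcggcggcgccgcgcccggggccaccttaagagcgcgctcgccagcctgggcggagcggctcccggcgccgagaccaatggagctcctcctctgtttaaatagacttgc
Cdkn2c: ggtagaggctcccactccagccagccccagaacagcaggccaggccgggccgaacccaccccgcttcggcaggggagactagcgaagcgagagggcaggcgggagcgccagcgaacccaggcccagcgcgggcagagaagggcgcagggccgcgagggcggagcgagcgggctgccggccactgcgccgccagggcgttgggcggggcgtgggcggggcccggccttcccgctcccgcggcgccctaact
Cdkn2d: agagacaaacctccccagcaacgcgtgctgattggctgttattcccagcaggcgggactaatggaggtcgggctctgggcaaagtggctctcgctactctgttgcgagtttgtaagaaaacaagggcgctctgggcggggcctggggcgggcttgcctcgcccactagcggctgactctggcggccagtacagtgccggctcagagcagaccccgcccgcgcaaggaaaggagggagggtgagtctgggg
The motifs were an E2F motif (TTTNNCGC), an interferon response motif (2 copies of GAAA set 2 bases apart), a FOXO motif (TGTTTAC) and the MYC E-box (CACGTG), which reads the same on both strands. The Cdk4 window holds 4 copies of CACGTG, at 172, 118, 98 and 11 bases before the start. Of 32851 windows of this length over all genes 6.02% hold at least 1 copy and 7 windows hold 4 or more, a cutoff chosen after this window was seen. The 3 inhibitor windows hold no match to these letters, which says nothing of the factors that bind there. Among the other members, E2F matches lie in the windows of Cdk2 and Cdk6 and in both windows of Cdkn2a, a CACGTG in that of Cdk6 and a FOXO match in 1 of the 2 windows of Ccnd3. Over all windows the E2F motif is found in 4.28%, the FOXO motif in 3.17% and the interferon response motif, which no member window holds, in 2.98%. A match is a description of the sequence and not a binding site.

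Among the D-type cyclins, Ccnd1 and Ccnd2 rose with CMA in WT cells and Ccnd3 did not pass the test. Ccnd2 (ENSMUSG00000000184, GRCm38 chromosome 6, 127125779 to 127151048, minus strand) encodes cyclin D2. Its level was 860, 774 and 872 CPM in WT cells with DMSO and 1835, 1863 and 1752 CPM with CMA. In STINGgt/gt cells it was 834, 854 and 876 CPM with DMSO and 877, 900 and 895 CPM with CMA. Every WT library with CMA thus lay far above the other 9 libraries, which fell within a narrow band. Ccnd2 rose by 1.12 on the log2 scale in WT cells (SE 0.047, a 2.18-fold change, edgeR adjusted p = 2.90e-12). The change in STINGgt/gt cells was 0.06 (SE 0.047, edgeR adjusted p = 0.644), and the difference between the genotypes was 1.06 (SE 0.066, edgeR adjusted p = 1.08e-09).

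Ccnd1 (ENSMUSG00000070348, chromosome 7, 144929931 to 144939869, minus strand) encodes cyclin D1, the D-type cyclin of many adherent cell types. It was close to undetected at baseline. WT libraries with DMSO held 4, 3 and 5 reads of it and those with CMA 72, 73 and 60 reads. STINGgt/gt libraries held 7, 6 and 5 reads with DMSO and 2, 0 and 3 reads with CMA. The WT libraries with CMA were the only ones with more than 7 reads, at a mean of 2.05 CPM ± 0.184 (SD, n = 3). The ratio of the pooled levels in WT cells was 16.8 (95% interval 9.41 to 33.0, counting error only), and the fitted change was 4.03 (SE 0.28, edgeR adjusted p = 1.74e-09), a call that was also made with no filter. With CMA, the ratio of the pooled levels of WT to STINGgt/gt cells was 49.3 (95% interval 20.8 to 154, counting error only), on 205 against 5 reads. In STINGgt/gt cells 18 reads with DMSO faced 5 with CMA, a ratio of 0.248 (95% interval 0.0720 to 0.694, counting error only), and the change did not pass the test (edgeR adjusted p = 0.133). The difference of the effects was 5.95 (SE 0.67, edgeR adjusted p = 1.18e-06). Ccnd1 passed the filter on low counts only through WT libraries with CMA, so these p-values are not independent of that filter. Even with CMA the level of Ccnd1 per kilobase of exon was 0.435 ± 0.0391 CPM, against 193 ± 6.15 CPM for Ccnd2 (SD, n = 3). A total of 1100 bases of its exons overlap those of LTO1 on the opposite strand. The strand setting of the counting is not given in the sources used here.

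Ccnd3 (ENSMUSG00000034165, chromosome 17, 47505051 to 47599691, plus strand), encodes cyclin D3. WT libraries had 509, 534 and 456 CPM with DMSO and 504, 534 and 496 CPM with CMA. STINGgt/gt libraries had 413, 406 and 428 CPM with DMSO and 389, 349 and 387 CPM with CMA. The WT groups overlapped, and every WT library was above every STINGgt/gt library. The change with CMA was 0.03 in WT cells (SE 0.058, edgeR adjusted p = 0.636) and -0.15 in STINGgt/gt cells (SE 0.058, edgeR adjusted p = 0.273), where it just passed when only the groups compared were fitted (edgeR adjusted p = 0.04997). The difference of these effects, 0.18 (SE 0.082), missed the threshold at an edgeR adjusted p of 0.0688 and passed it in 7 of 21 alternative analyses. WT exceeded STINGgt/gt cells by 0.27 with DMSO (SE 0.058, edgeR adjusted p = 0.00142) and by 0.45 with CMA (SE 0.058, edgeR adjusted p = 2.78e-06).

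As a share of the summed D-type cyclin level per kilobase of exon, Ccnd2 made up 60.9% ± 3.31 (SD, n = 3) in WT cells with DMSO and 76.7% ± 0.40 with CMA. In STINGgt/gt cells its share was 65.7% ± 0.486 with DMSO and 68.9% ± 1.5 with CMA. Nearly all of the remainder was Ccnd3, and Ccnd1 reached 0.173% ± 0.0103 in WT cells with CMA. The shares of Ccnd2 did not overlap between treatments in either genotype (exact two-sided permutation test, p = 0.1 for each, the smallest p that 3 against 3 libraries allow). Which cyclin is called the more abundant depends on the length used. The exons of Ccnd3 span 8775 bases together but its longest principal transcript only 2113, and per principal transcript the Ccnd2 share was 35.9%, 54.2%, 40.7% and 44.2% in WT with DMSO, WT with CMA, STINGgt/gt with DMSO and STINGgt/gt with CMA. The increase in WT cells was present with either length.

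**Figure D2:**
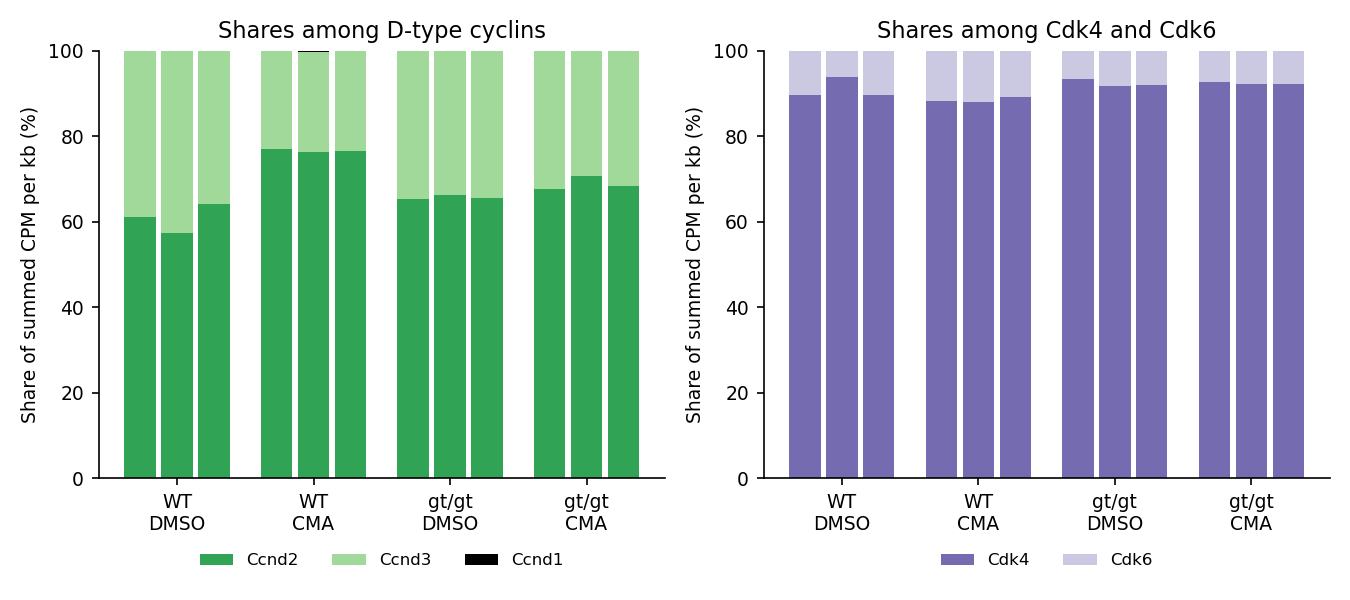
Share in percent (y axis) of each gene in the summed CPM per kilobase of exon, for the D-type cyclins (left) and for Cdk4 and Cdk6 (right), with 1 stacked bar for each library, grouped by genotype and treatment; gt/gt stands for STINGgt/gt. Ccnd2 takes 76.4% to 77.1% in WT libraries with CMA and 57.4% to 64.1% with DMSO, and Cdk4 ranges from 88.0% to 93.8% over all libraries.

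Of the kinases, only Cdk4 moved with CMA. Cdk4 (ENSMUSG00000006728, chromosome 10, 127063534 to 127067920, plus strand) encodes the kinase that D-type cyclins activate. WT libraries had 249, 257 and 241 CPM with DMSO and 180, 178 and 175 CPM with CMA. STINGgt/gt libraries had 277, 274 and 275 CPM with DMSO and 262, 263 and 268 CPM with CMA. The WT libraries with CMA were the lowest of all, and within both genotypes the treatments did not overlap. Cdk4 fell by 0.49 in WT cells on the log2 scale (SE 0.038, edgeR adjusted p = 7.91e-09), to 0.714 of its level with DMSO. The change in STINGgt/gt cells was -0.06 (SE 0.038, edgeR adjusted p = 0.556) and the difference of the effects -0.43 (SE 0.054, edgeR adjusted p = 4.22e-06). Exons of Cdk4 share 641 bases with those of Tspan31 on the opposite strand.

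Cdk6 (ENSMUSG00000040274, chromosome 5, 3343893 to 3523218, plus strand), the other partner of D-type cyclins, did not pass the test in any of the 5 comparisons with all libraries. Its levels in WT libraries were 123, 73.7 and 121 CPM with DMSO and 104, 105 and 91.2 CPM with CMA. In STINGgt/gt libraries they were 86.0, 104 and 104 CPM with DMSO and 89.8, 95.8 and 95.6 CPM with CMA. Replicate 2 of WT with DMSO was the lowest of all 12 libraries, and the other 2 of its group were the highest. With all libraries the change in WT cells was -0.09 (SE 0.14, edgeR adjusted p = 0.591). Without that replicate the change in WT cells was -0.29 (edgeR adjusted p = 0.000753), WT exceeded STINGgt/gt cells with DMSO by 0.31 (edgeR adjusted p = 0.000945) and the difference of the effects was -0.23 (edgeR adjusted p = 0.0387), so the outcome for Cdk6 rests on this library. Per kilobase of exon, Cdk4 made up 91.0% ± 2.4 of the sum of Cdk4 and Cdk6 in WT cells with DMSO and 88.4% ± 0.671 with CMA, and 92.4% ± 0.791 and 92.4% ± 0.220 in STINGgt/gt cells (SD, n = 3).

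Cdk2 (ENSMUSG00000025358, chromosome 10, 128697939 to 128705051, minus strand), the partner of cyclins E and A, stayed between 108 and 122 CPM in all 12 libraries. The group means were 110 ± 2.53 CPM in WT with DMSO, 112 ± 2.41 in WT with CMA, 120 ± 0.508 in STINGgt/gt with DMSO and 118 ± 4.92 in STINGgt/gt with CMA (SD, n = 3). The treatments overlapped in both genotypes. The change with CMA was 0.03 in WT cells (SE 0.042, edgeR adjusted p = 0.546) and -0.02 in STINGgt/gt cells (SE 0.041, edgeR adjusted p = 0.885).

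Among the inhibitors, Cdkn1b and Cdkn2d rose and Cdkn2c fell with CMA in WT cells, while Cdkn2a did not pass the test. Cdkn1b (ENSMUSG00000003031, chromosome 6, 134920401 to 134925513, plus strand) encodes p27, the CIP/KIP inhibitor associated with quiescence. WT libraries had 165, 160 and 162 CPM with DMSO and 231, 233 and 232 CPM with CMA. STINGgt/gt libraries had 132, 139 and 141 CPM with DMSO and 112, 126 and 129 CPM with CMA. The WT libraries with CMA were the highest, and the 2 treatments did not overlap in STINGgt/gt cells either, where the order was the opposite. Cdkn1b rose by 0.52 in WT cells (SE 0.050, a 1.43-fold change, edgeR adjusted p = 1.17e-07). In STINGgt/gt cells the change was -0.17 (SE 0.051, edgeR adjusted p = 0.143), which passed when only the groups compared were fitted (edgeR adjusted p = 0.0414). It also passed with libraries blocked by replicate number. The difference of the effects was 0.68 (SE 0.071, edgeR adjusted p = 5.34e-07).

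Of the INK4 genes, Cdkn2c fell and Cdkn2d rose slightly. Cdkn2c (ENSMUSG00000028551, chromosome 4, 109660876 to 109667189, minus strand) encodes p18. WT libraries had 19.7, 20.2 and 19.5 CPM with DMSO and 12.1, 12.0 and 12.6 CPM with CMA. STINGgt/gt libraries had 19.7, 21.6 and 21.1 CPM with DMSO and 17.3, 19.5 and 20.7 CPM with CMA. All WT libraries with CMA were below the other 9, and the STINGgt/gt groups overlapped. Cdkn2c fell by 0.69 in WT cells (SE 0.070, edgeR adjusted p = 1.73e-07), to 0.618 of the level with DMSO. The change in STINGgt/gt cells was -0.12 (SE 0.065, edgeR adjusted p = 0.480) and the difference of the effects -0.58 (SE 0.095, edgeR adjusted p = 7.40e-05).

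Cdkn2d (ENSMUSG00000096472, chromosome 9, 21288463 to 21291209, minus strand) encodes p19 of the INK4 family and differed between the genotypes under both treatments. WT libraries had 98.6, 104 and 100 CPM with DMSO and 110, 113 and 111 CPM with CMA. STINGgt/gt libraries had 60.5, 57.3 and 59.7 CPM with DMSO and 54.1, 51.1 and 49.8 CPM with CMA. The 4 groups did not overlap. The change with CMA was 0.14 in WT cells (SE 0.043, edgeR adjusted p = 0.00834) and -0.19 in STINGgt/gt cells (SE 0.044, edgeR adjusted p = 0.0417), and the effects differed by 0.33 (SE 0.061, edgeR adjusted p = 0.000210). The call in STINGgt/gt cells was lost in 11 of 22 alternative analyses, with an adjusted p of up to 0.193.

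Cdkn2a (ENSMUSG00000044303, chromosome 4, 89274471 to 89294653 in GENCODE M21, minus strand) encodes p16 and, from an alternative first exon, p19ARF, and its reads were counted together. WT libraries held 11, 9 and 17 reads with DMSO and 13, 5 and 11 with CMA. STINGgt/gt libraries held 6, 2 and 7 reads with DMSO and 3, 4 and 3 with CMA. The treatments overlapped in both genotypes, and at this depth no change with CMA was detectable. The ratio of CMA to DMSO was 0.770 in WT cells (95% interval 0.457 to 1.29) and 0.596 in STINGgt/gt cells (95% interval 0.239 to 1.42), intervals that cover counting error only.

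**Figure D3:**
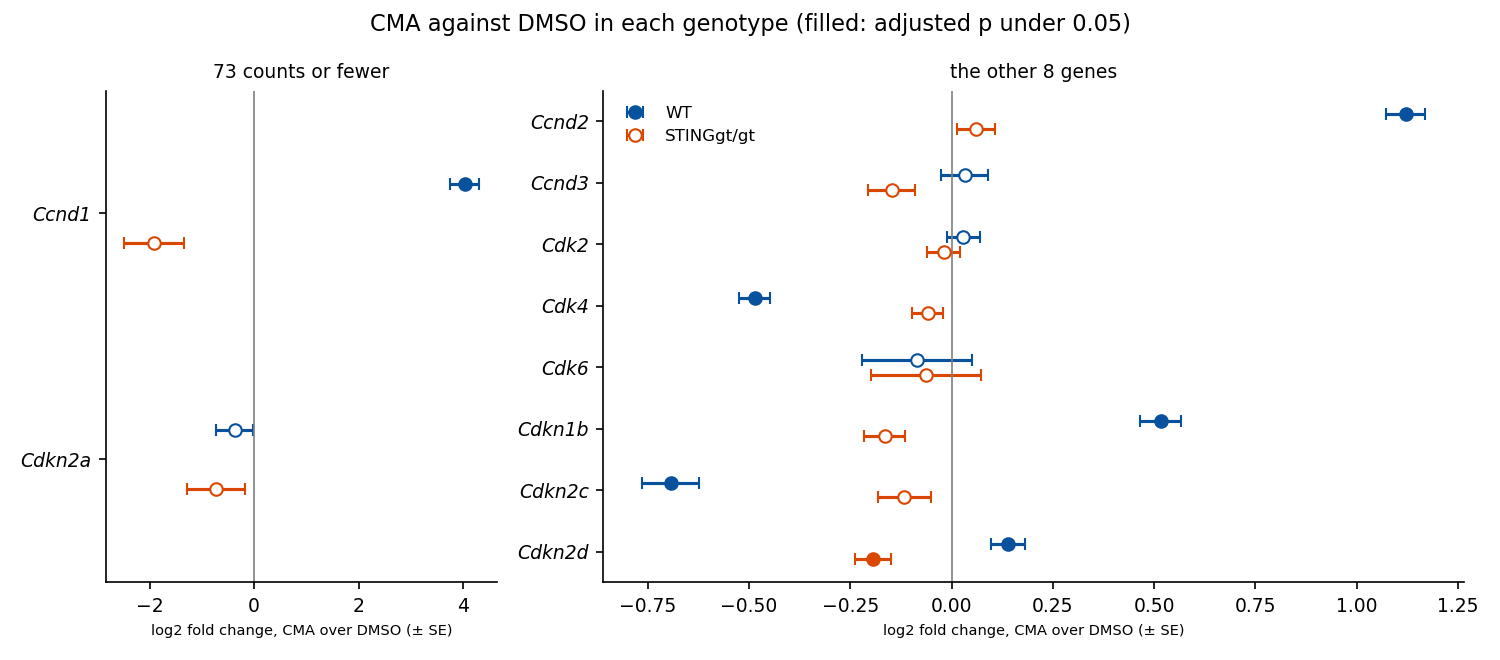
Log2 fold change of CMA over DMSO (x axis) with its standard error for the 10 genes (y axis), in WT (blue) and STINGgt/gt cells (orange), filled where the edgeR adjusted p was under 0.05; the 2 genes of low count have an axis of their own. The 6 filled WT points lie on both sides of 0, and among STINGgt/gt points only that of Cdkn2d is filled.

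WT and STINGgt/gt cells were also compared under the same treatment. These comparisons share their libraries with those above. With DMSO, Ccnd3, Cdkn1b, Cdkn2a and Cdkn2d were higher and Cdk2 and Cdk4 lower in WT cells, that is 4 and 2 of 10 genes, or 3 and 2 of the 8 without Ccnd1 and Cdkn2a, against 22.9% and 19.8% of all genes. The median difference was 0.04 for the 10 genes as for the 8, and -0.002 for all genes tested. The difference was 0.77 for Cdkn2d (SE 0.044, edgeR adjusted p = 7.07e-10) and 0.24 for Cdkn1b (SE 0.051, edgeR adjusted p = 0.00110), both of which rose with CMA in WT cells. Cdkn2a, with 37 reads in WT and 15 in STINGgt/gt cells with DMSO, differed by 1.41 (SE 0.41, edgeR adjusted p = 0.0112), and also passed with no filter. Without replicate 2 of STINGgt/gt with DMSO its adjusted p was 0.0624. Cdkn2a passed the filter on low counts only through WT libraries, so its p-values between the genotypes are not independent of that filter. The differences of Cdk2, at -0.12 (SE 0.042, edgeR adjusted p = 0.0266), and Cdk4, at -0.15 (SE 0.038, edgeR adjusted p = 0.00538), were small, and that of Cdk2 missed the threshold in 5 of 20 alternative analyses. Ccnd1, Ccnd2, Cdk6 and Cdkn2c did not pass.

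With CMA, Ccnd1, Ccnd2, Ccnd3, Cdkn1b, Cdkn2a and Cdkn2d were higher and Cdk4 and Cdkn2c lower in WT cells, that is 6 and 2 of 10, or 4 and 2 of the same 8, against 37% and 36.5% of all genes. The median difference was 0.68 for the 10 genes and 0.27 for the 8, against -0.005 for all genes tested. Cdk2 did not pass, at -0.07 (edgeR adjusted p = 0.125). With scaling by total count (edgeR adjusted p = 0.0158) or upper quartile (edgeR adjusted p = 0.0447) Cdk2 was lower in WT cells. The same held without replicate 1 of STINGgt/gt with CMA (edgeR adjusted p = 0.0494). Cdkn2d differed by 1.10 (SE 0.044, edgeR adjusted p = 8.52e-13), Ccnd2 by 1.03 (SE 0.047, edgeR adjusted p = 5.78e-12) and Cdkn1b by 0.92 (SE 0.051, edgeR adjusted p = 5.90e-11). For Cdkn2c the difference was -0.65 (SE 0.069, edgeR adjusted p = 2.68e-07) and for Cdk4 -0.57 (SE 0.038, edgeR adjusted p = 7.05e-10). Cdkn2a differed by 1.76 (SE 0.47, edgeR adjusted p = 0.00314) on 29 against 10 reads, and also passed with no filter. Of the markers of other cells, all 6 of B cells were higher in WT than in STINGgt/gt cells under both treatments. Of 6 myeloid markers tested 6 were higher with DMSO and 5 with CMA, where Itgam differed by -0.07 (edgeR adjusted p = 0.811). Of 6 CD8 and natural killer markers 5 were higher with DMSO, whereas with CMA 3 were higher (Cd8a by 1.23) and 3 lower (Klrb1c, by a difference of -1.70, among them). Their part in the differences of the cell-cycle genes was not tested.

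**Figure D4:**
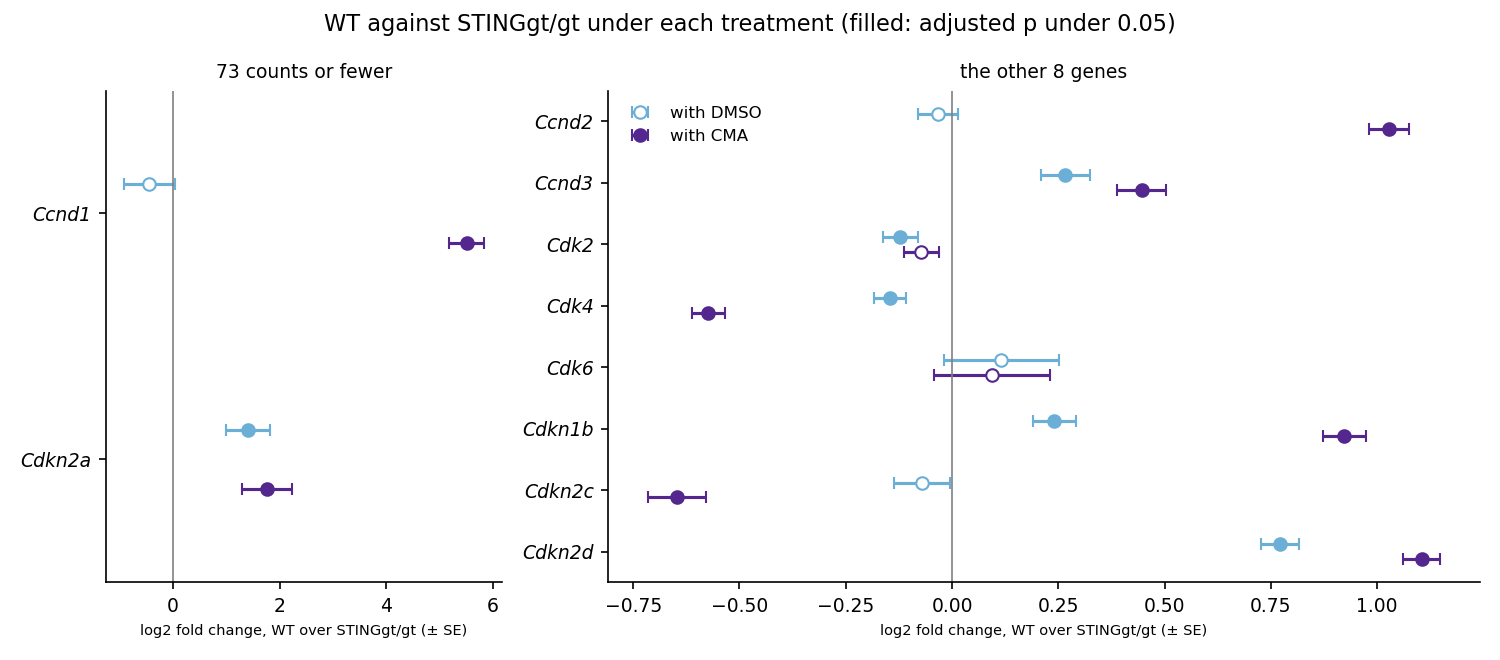
Log2 fold change of WT over STINGgt/gt (x axis) with its standard error for the 10 genes (y axis), with DMSO (light blue) and with CMA (purple), filled where the edgeR adjusted p was under 0.05; the 2 genes of low count have an axis of their own. Ccnd1, Ccnd2 and Cdkn2c pass the test with CMA only and Cdk2 with DMSO only. Ccnd3, Cdk4, Cdkn1b, Cdkn2a and Cdkn2d pass under both treatments, Cdkn2d at 0.77 and 1.10.

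In level per kilobase of exon, the order in WT cells with DMSO was Ccnd2 (88.8 ± 5.68 CPM), Cdk4 (76.6 ± 2.55), Cdkn2d (64.1 ± 1.81), Ccnd3 (57.0 ± 4.55), Cdkn1b (35.6 ± 0.519), Cdk2 (17.7 ± 0.406), Cdk6 (7.58 ± 2.00), Cdkn2c (7.38 ± 0.130), Cdkn2a (0.318 ± 0.0524) and Ccnd1 (0.0261 ± 0.00478), each as mean ± SD of 3 libraries. Cdk6 and Cdkn2c did not differ beyond their spread. With CMA in WT cells Cdkn2d, at 70.6 ± 0.961 CPM per kilobase, stood above Cdk4, at 54.7 ± 0.684, and Ccnd1, at 0.435 ± 0.0391, above Cdkn2a, at 0.246 ± 0.0990. In STINGgt/gt cells Cdkn2d was below Cdk4 and Ccnd3 under both treatments, at 37.6 ± 1.06 with DMSO and 32.8 ± 1.39 with CMA. The order depends on the length assigned to each gene. Per kilobase of the longest principal transcript, an alternative chosen after seeing the data, Ccnd3 stood highest in WT cells with DMSO (237 ± 18.9 CPM), above Ccnd2 (132 ± 8.45), Cdk4 (121 ± 4.03) and Cdkn2d (70.9 ± 2.00). On that scale Cdkn2d, at 78.1 ± 1.06, stood below Cdk4, at 86.5 ± 1.08, with CMA in WT cells, the reverse of their order per kilobase of exon, and Ccnd1 still stood above Cdkn2a (0.548 ± 0.0493 against 0.322 ± 0.130; SD, n = 3).

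The expression of the members was also set beside that of all other genes over the 12 libraries, by the Pearson correlation of log2 CPM, given as a description because the libraries fall into 4 groups. The gene most like Ccnd2 was Klf6 (r = 0.998), that most like Cdk4 was Arhgef4 (0.998), and that most like Cdkn2d was H2-Q10 (0.997), a gene of the major histocompatibility complex with near-identical copies. For Cdkn2c it was Gng2 (0.994), for Cdkn1b Ube2h (0.993), for Ccnd3 Bsg (0.987) and for Ccnd1 Kctd2 (0.985, or Penk with a smaller prior count). For Cdkn2a it was Asb3 (0.945), for Cdk2 Tk2 (0.925) and for Cdk6 Tbck (0.912). Among the members, Ccnd2 ran opposite to Cdkn2c (r = -0.968) and Cdk4 (-0.965), Cdk4 ran with Cdkn2c (0.962) and Ccnd3 with Cdkn2d (0.940).

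Further genes of the G1/S pathway moved in both directions in WT cells as well, and none of the 48 tested passed in STINGgt/gt cells. There, at an unadjusted p under 0.05 edgeR gave 7 higher and 1 lower, against 5.94% and 7.02% of all genes. DESeq2 called 2 higher (Ccne1 and E2f3) and 1 lower (Cdkn1a), against 1.12% and 1.89% of the genes it tested. With limma-voom 1 was higher (E2f3) and 0 lower, against 0.449% and 0.905% of the genes it tested. Of 10 further cyclins, kinases and partners 2 rose and 7 fell in WT cells, against the 33% and 37.4% of all genes tested that rose and fell. Ccne1, which encodes cyclin E1, the activator of CDK2, rose by 1.14 (edgeR adjusted p = 3.43e-13), from a mean of 63.7 to 140 CPM, and Ccne2 by 0.38 (edgeR adjusted p = 0.00296). Cyclin H (Ccnh), which with Cdk7 and Mnat1 forms the kinase that activates CDKs, fell by 1.31 (edgeR adjusted p = 2.24e-11), from 53.7 to 21.7 CPM, and Mnat1 fell by 0.42, Cdk1 by 0.35 and Ccna2 by 0.30. The further CDK inhibitors did not pass with CMA. Cdkn1a, which encodes p21, had means of 412 CPM in WT cells with DMSO, 393 with CMA, and 256 and 209 in STINGgt/gt cells, and Cdkn1c had under 1 CPM in all groups while Cdkn2b was too low to be tested.

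Of 13 RB, E2F and DP genes 5 rose and 5 fell in WT cells, shares near the 33% and 37.4% of all genes. E2f2, an activating E2F, rose by 0.43, the DP partner Tfdp2 by 0.39, the pocket protein gene Rbl2 by 0.33 and the repressor E2f7 by 0.32. E2f4, the E2F of quiescent cells, fell by 0.71, from 215 to 131 CPM, Tfdp1 fell by 0.63, Rb1 by 0.33 and E2f6 by 0.31. Of 13 regulators of the members 6 rose and 1 fell, against the same 33% and 37.4%. Myc rose by 0.65, from 317 to 498 CPM (edgeR adjusted p = 2.17e-08), and Trp53 by 0.43. Fbxw7, which directs cyclin E to degradation, rose by 0.24 and Bmi1, a repressor of the Cdkn2a locus, by 0.22, whereas Rbx1, a ubiquitin ligase subunit, fell by 0.22.

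Of 10 genes of S phase and division 1 rose and 5 fell in WT cells, again against 33% and 37.4% of all genes. Mki67, which encodes Ki-67, rose by 0.33. Ccnb1, the mitotic cyclin, fell by 0.49, Mcm2, a subunit of the replicative helicase, by 0.48, Mcm4 by 0.19 and Pcna by 0.13. The medians of the lists in WT cells were -0.26 for the cyclins and partners, 0.02 for the RB and E2F genes, 0.05 for the regulators and -0.12 for the S-phase and division genes, against -0.04 for all genes tested. The measurements are of mRNA only, and the proteins and the phases of the cycle were not measured in these libraries.

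**Figure D5:**
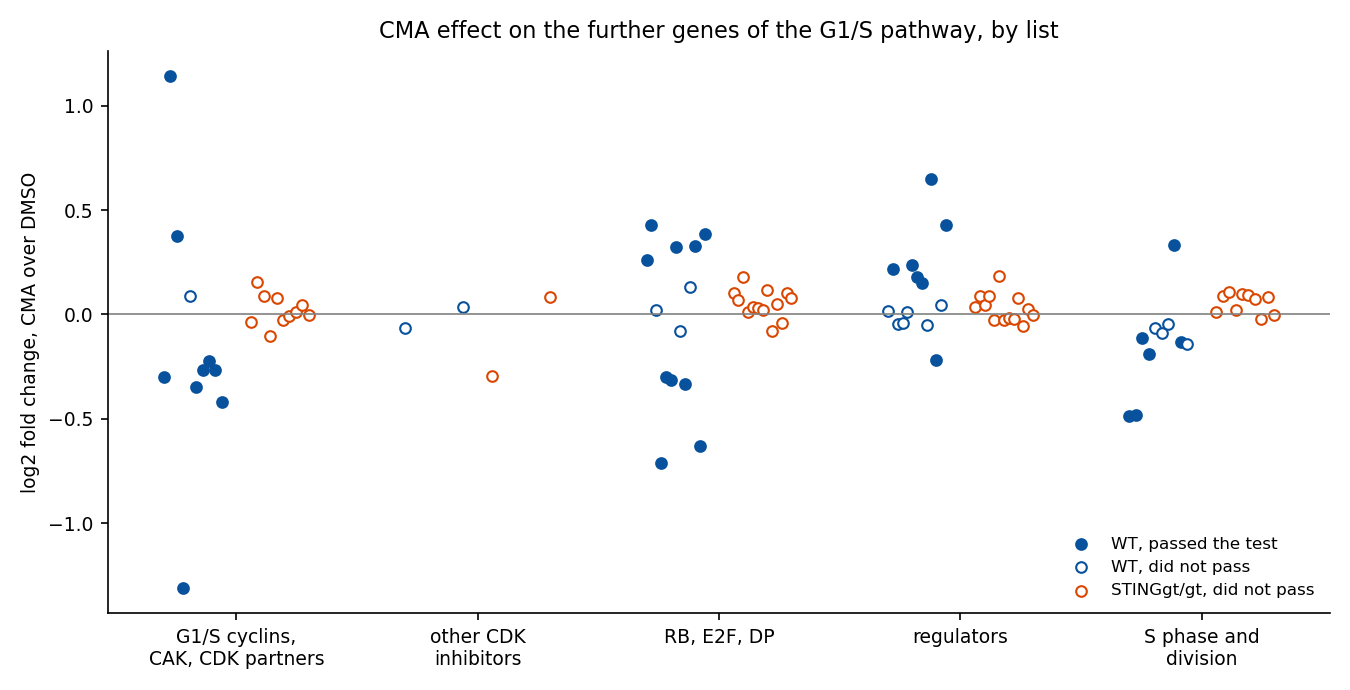
Log2 fold change of CMA over DMSO (y axis) of the further genes of the pathway in 5 lists (x axis; CAK is the CDK-activating kinase), in WT (blue) and STINGgt/gt cells (orange), with 1 point for each gene tested, filled where the edgeR adjusted p was under 0.05. WT points reach from -1.31 (Ccnh) to 1.14 (Ccne1), and no STINGgt/gt point is filled.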

How the data were processed

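RNA of 12 libraries of mouse CD4+ T cells was made into libraries with a kit that keeps the strand. Deposited by the authors were raw read counts over Ensembl genes, 1 file for each library, and log2 values of 11921 genes, a table that holds 9 of the 10 members (all but Cdkn2a). Those log2 values equal log2(count + 0.5) plus 1 constant per library. The submitters' processing notes name cutadapt 1.3, STAR 2.4.0f1, HTSeq 0.6.1 and RSEM 1.2.16 and the build GRCm38. The strand setting and annotation version are not given in the sources used here. All per-sample columns were matched to libraries by name. Tally lines that name no gene, 34.9% to 36.3% of all entries, most of them alignments that were not unique, entered neither library sizes nor tests. Replicates always differed beyond counting noise. The chi-square per degree of freedom was 9.98 to 29.9 for pairs of WT libraries with DMSO and 2.63 to 6.82 for pairs in the other groups.

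Counts were analysed with edgeR 4.0.16 (glmQLFit and glmQLFTest, R 4.3.3), with TMM scaling, filterByExpr and the 4 groups in 1 model. DESeq2 1.42.0 and limma 3.58.1 were alternatives, with 2 other scalings, 2 other filters, only the groups compared, replicate blocks and leaving out each library. Correlations used log2 CPM with a prior count of 2 and genes with a mean count of at least 50. Exon lengths are unions of GENCODE M21 exons; positions are those of the deposited table, except that of Cdkn2a. Named were the 10 members, the gene most like each, Cd3e and Cd4, and from each list up to 4 genes with the largest and up to 4 with the smallest change in WT among those past the threshold; Cdkn1a, Cdkn1c, Cdkn2b, E2f3, Cdk7 and the other named markers of cell types fall outside this rule and were chosen after their values were seen. The members, gene lists and tests were chosen with earlier results of these data known. The paper's other experiments were not analysed here.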

Additional observations from a re-analysis of the deposited data

Results flagged for a closer look

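In 6 members WT and STINGgt/gt cells responded differently to CMA by the test of the difference itself (log2, WT effect minus STINGgt/gt effect), 4 of 10 higher and 2 lower against 27.2% and 31.6% of all genes, so the share of members was near that of all genes. These were 5.95 for Ccnd1, 1.06 for Ccnd2, 0.68 for Cdkn1b and 0.33 for Cdkn2d, and -0.43 for Cdk4 and -0.58 for Cdkn2c. For Cdkn2d the effects had opposite signs and passed the test in each genotype, although the call in STINGgt/gt cells was lost in 11 of 22 alternative analyses. For Ccnd1 and Cdkn1b the signs were also opposite, but the STINGgt/gt effect did not pass in the fit of all 4 groups. That of Cdkn1b passed when only the groups compared were fitted and under the replicate block by number. The value for Ccnd1 rests on 5 reads in 3 STINGgt/gt libraries with CMA, and the gene passed the filter only through WT libraries with CMA. This value may depend on the prior count of the fit, which was not varied.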

How the results depend on the processing

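Of 1031 values of single members under the alternatives, 979 kept their direction and their side of the threshold, 19 reversed, 17 lost and 16 gained a call. The 6 calls with CMA in WT cells and the 6 differences of the effects held under every alternative that tested the gene. With at least 10 counts in every library Ccnd1 and Cdkn2a were not tested, and 3 members rose in WT cells instead of 4. The 1 member lower with CMA in STINGgt/gt cells became 0 with no filter, 0 under the replicate block by library name, 2 under the replicate block by number, 3 with only the groups compared (Ccnd3, Cdkn1b and Cdkn2d), and 0 to 1 when a library was left out. The 2 members lower in WT with DMSO became 1 when only the groups compared were fitted, 1 with no filter, and 1 to 2 when a library was left out. The cause was not tested.

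The numbers were not taken to pair the libraries. Correlations of the deviations of same-numbered libraries were 0.00195, 0.104 and 0.132 for the WT numbers and 0.0634, 0.0597 and 0.0585 for those of STINGgt/gt, and 10 of 12 libraries correlated best with their own number. Under the replicate block by number 5 members, now with Ccnd3, had a higher effect in WT than in STINGgt/gt cells, and Cdkn1b passed in STINGgt/gt cells (adjusted p = 0.0421). The first digit of the library names pairs the same libraries as the numbers, except that a STINGgt/gt library of each treatment has no partner. Under the replicate block by library name, which uses this digit, Cdkn2d lost its call in STINGgt/gt cells, with a change of -0.209. WT and STINGgt/gt could not be compared under a block.

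The values that reversed did not pass, nor did the effects they reversed. The difference of the Cdk6 effects was 0.00475 in DESeq2, 0.00821 in limma-voom, 0.0590 in the authors' log2 table tested by limma, 0.0141 with at least 10 counts in every library, 0.00200 under the replicate block, and -0.23 to 0.108 when a library was left out, where -0.23, without replicate 2 of WT with DMSO, kept its sign and passed (adjusted p = 0.0387). With a library left out, the ranges were -0.29 to 0.0426 for Cdk6 and -0.0196 to 0.077 for Ccnd3 with CMA in WT, -0.0438 to 0.0113 for Cdk2 with CMA in STINGgt/gt, -0.0708 to 0.0126 for Ccnd2 and -0.0074 to 0.31 for Cdk6 in WT against STINGgt/gt with DMSO, and -0.0222 to 0.734 for the difference of the Cdkn2a effects.

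The share of Ccnd2 in WT with CMA and STINGgt/gt with DMSO was 78.0% and 67.3% when counts were not divided by length. Per longest principal transcript, an alternative chosen after seeing the data, it was 35.9% and 54.2% for WT with DMSO and CMA, then 40.7% and 44.2% for STINGgt/gt. The share of Cdk4 was 70.4%, 64.0%, 73.8% and 73.8% in the same 4 groups without division by length, and 90.9%, 94.0% and 94.1% in WT with CMA and STINGgt/gt with DMSO and CMA per principal transcript. Each group has 3 libraries, and Ccnd1 and Cdkn2a are limited by depth.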
